A study of Mus musculus with 40 samples.

Results

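Pax5 and the DNA upstream of it were examined in a table of DNA methylation from mouse B cells. The locus was taken as every 100 bp tile in a window of 500 kb on chromosome 4 of mm9, the mouse build of the table, from a first tile at 44501601 to a last tile at 44998401. It held 368 of the 971845 tiles in the table. A total of 187 tiles lay in the Pax5 gene body, taken as 180 kb, with the gene running towards lower coordinates from a start edge between the tiles at 44719301 and 44724901. A further 136 tiles lay in the flank upstream of its start and 45 lay beyond its downstream end. No value was given in any library for 48 of the 368 tiles.

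Methylation was measured by RRBS (reduced representation bisulfite sequencing), a method that covers the CpG-rich fraction of the genome and leaves most other DNA unread. The cells were pro-B cells, an early committed stage, and follicular B cells, the main mature resting B cells, from C57/bl mice of 6 to 8 weeks. The 4 genotypes were wild type (WT), Tet2 knockout (Tet2KO), Tet3 knockout (Tet3KO) and the knockout of both genes (DKO). There were 3 libraries for each stage and genotype, 24 in all. The knockouts were inducible deletions under the Mb1 promoter, which is active in the B lineage from its early stages, and whether the WT mice carried the same driver is not given in the sources used here. WT mice were 8, 6 and 6 weeks old, Tet2KO mice 8, 6 and 6, Tet3KO mice all 7, and DKO mice 7, 7 and 6. All Tet2KO mice were female, whereas the other genotypes held both sexes. Each library is called by its running number, from 1 to 12 for pro-B cells and from 13 to 24 for follicular cells. Whether replicate libraries came from different mice is not stated, so p-values measure only the spread between libraries. How the cells were sorted is not given. The methylation table holds no gene expression, and the RNA sequencing samples of the series were not used to check the cell types.

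Pax5 encodes a paired-domain transcription factor that commits progenitors to the B lineage and holds them there, switching on genes of the B lineage and silencing genes of other lineages. It is on from the pro-B stage through mature B cells and is switched off in plasma cells. Tet2 and Tet3 are dioxygenases that oxidise methylated cytosine, the first step of active demethylation. In human B cells a distal PAX5 enhancer is known far upstream of the gene, in the neighbourhood of ZCCHC7, and whether any mouse tile examined here corresponds to it was not tested. In the RefSeq order of mouse genes (GRCm38.p6), the protein-coding genes upstream of Pax5 are Zcchc7, an RNA-binding zinc-knuckle protein of nuclear RNA surveillance, then Grhpr, a glyoxylate-reducing enzyme, and Zbtb5, a zinc-finger protein. Melk, a cell-cycle kinase, is the first protein-coding gene beyond the downstream end. No mm9 annotation was at hand, so tiles are given by position only, with no statement on exons, introns or UTRs.

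The 250 bases before the RefSeq starts of Pax5 and Zcchc7 are printed to show the CpG content at the start of the gene and of its upstream neighbour. Both sequences are from RefSeq with build GRCm38.p6, in lower case with each CpG in capitals, and run 5′ to 3′ along the gene's own strand. The Pax5 window is chr4:44710695-44710944 on the minus strand and the Zcchc7 window is chr4:44756309-44756558 on the plus strand.
Pax5: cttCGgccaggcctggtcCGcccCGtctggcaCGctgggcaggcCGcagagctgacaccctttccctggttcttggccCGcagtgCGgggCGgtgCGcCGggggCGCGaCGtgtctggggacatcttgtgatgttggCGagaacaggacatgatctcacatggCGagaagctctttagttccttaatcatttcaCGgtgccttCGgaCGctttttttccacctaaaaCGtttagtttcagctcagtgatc
Zcchc7: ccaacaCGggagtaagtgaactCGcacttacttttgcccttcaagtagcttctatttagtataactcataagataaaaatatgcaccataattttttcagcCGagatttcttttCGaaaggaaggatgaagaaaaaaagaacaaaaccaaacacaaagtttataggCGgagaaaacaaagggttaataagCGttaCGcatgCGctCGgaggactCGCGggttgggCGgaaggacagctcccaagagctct
The Pax5 window held 19 CpGs, a number that 19.7% of 32851 mouse promoter windows of this length reached, with a median of 6. The Zcchc7 window held 12 CpGs, reached by 33.5% of the windows. GC content was 58.8% for Pax5 and 42% for Zcchc7. The letters CCGG, which are the same on both strands and contain one of the CpGs counted, occurred in 1 place in the Pax5 window and in none of the Zcchc7 window, against 47.1% of all windows with at least 1 match. These coordinates belong to a later build than the tiles and were not converted, so a tile cannot be laid on either window.

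Coverage of the locus differed widely between libraries. Locus tiles with a value numbered 3 to 236 in pro-B libraries, with a median of 161, and 146 to 236 in follicular libraries, with a median of 212.5. Library 8, a pro-B Tet3KO library, had only 3 locus tiles and 24600 tiles in the whole table, where the other libraries reached up to 631415, so pro-B Tet3KO rests on libraries 7 and 9 throughout. The deposited values are levels without read counts, so the depth behind each level is unknown and a level of 0 or 100% may rest on few reads. A tile was tested where every group had at least 2 libraries with a value, which held for 81 of the 368 locus tiles and for 200813 autosomal tiles in all. Of the 81, 45 lay in the gene body, 31 in the upstream flank and 5 beyond the downstream end.

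Tested tiles of the flank were mostly low in methylation and those of the gene body were mixed. By the mean over the 23 libraries other than library 8, 46 of the 81 tiles were low (under 20%), 18 intermediate (20 to 80%) and 17 high (above 80%), which is 56.8%, 22.2% and 21% of them. Over all 200813 tested tiles the shares were 55.5%, 11.6% and 32.9%. In the flank, 26 of 31 tiles were low and 4 intermediate. In the gene body, 20 of 45 were low, 12 intermediate and 13 high. None of the 5 tiles beyond the downstream end was low. The profile along the locus shows the low tiles gathered close to the start of Pax5 and at separate places in the flank.

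**Figure D1:**
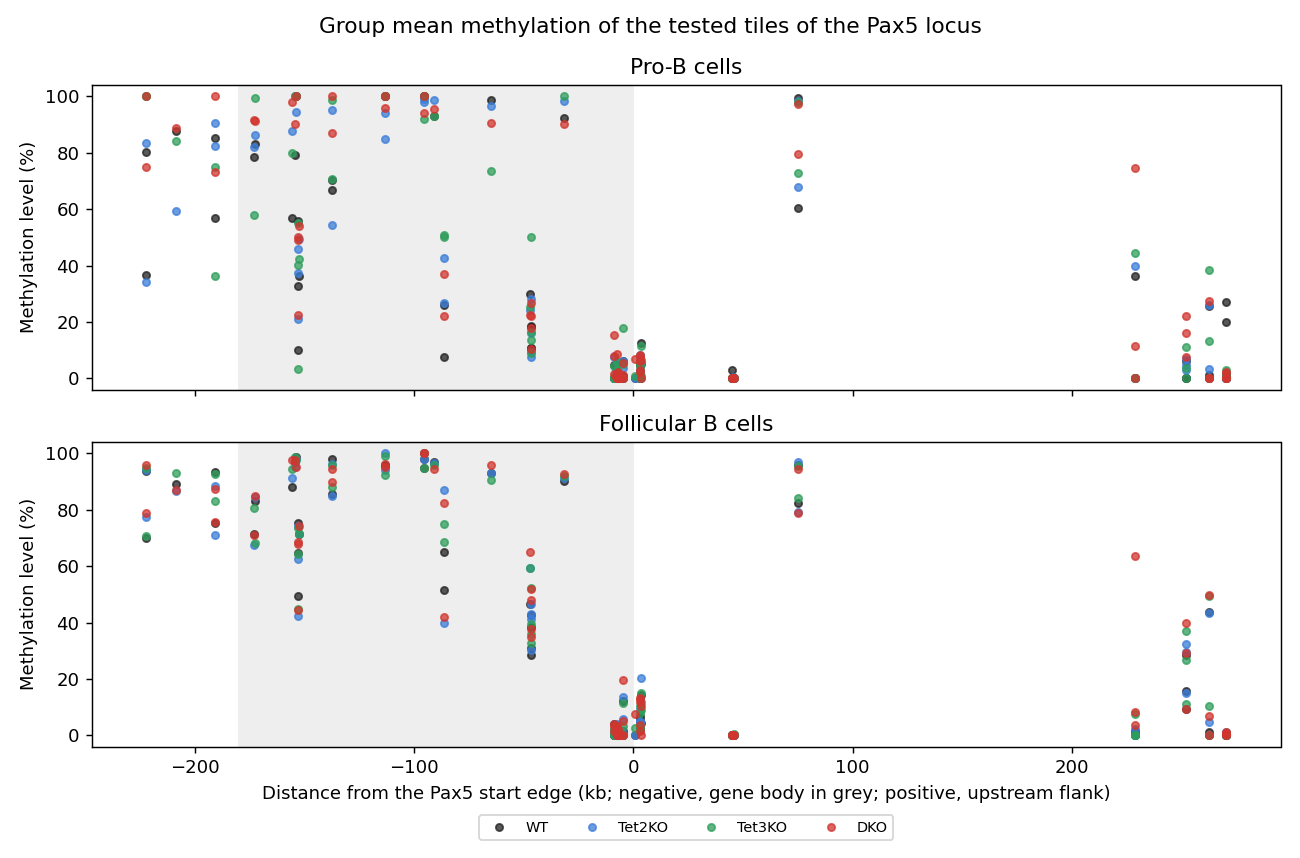
Group mean methylation (percent, vertical axis) of the 81 tested tiles against distance from the upstream edge of the Pax5 gene body as given in the locus rule (kb, horizontal axis; negative inside the gene), for pro-B cells (upper panel) and follicular cells (lower panel), with the 4 genotypes in colour. Most tiles close to the start edge have group means under 20% in both panels, and the tile at 228.7 kb is near 0 in the follicular WT, Tet2KO and Tet3KO libraries and at 63.7% in DKO.

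The longest stretch near the Pax5 start was almost unmethylated in every genotype and at both stages. This longest stretch of tested tiles (joined where neighbours start within 500 bp) covered chr4:44716201-44717500 with 13 tiles, 11 of them with a value in all 23 libraries other than library 8. Its mean level over those 11 tiles was 0.979% ± 0.228 (SD, n = 3) in pro-B WT and 1.59% ± 0.511 (SD, n = 3) in pro-B DKO cells. In follicular cells the mean was 0.429% ± 0.0758 (SD, n = 3) in WT and 1.03% ± 0.302 (SD, n = 3) in DKO libraries. No library exceeded 1.95%. The neighbouring stretch at chr4:44718901-44719400 held group means from 0.697% to 3.08% over the 2 tiles with a value in all 23 libraries. Of the 3 tiles at chr4:44715101-44715400, the 1 with such values was at 0 in every WT and Tet2KO library of both stages and reached 16.7% in a pro-B DKO library.

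On the upstream side of the start, the stretch chr4:44726801-44727600 was low but not at 0. Over 6 of its 7 tiles the follicular mean was 6.03% ± 2.19 (SD, n = 3) in WT and 8.93% ± 2.13 (SD, n = 3) in DKO libraries. Pro-B means there ran from 2.97% in WT to 5.60% in DKO libraries. One of its tiles, chr4:44727101-44727200, had a small difference that passed the adjusted p but not the size of 20 points required for a call. At 44727101, the pro-B levels were 0% in every WT library, 1.92%, 2.6% and 4.44% in Tet2KO, 0.833% and 2.21% in Tet3KO, and 2.37%, 0% and 6.12% in DKO. Follicular levels at 44727101 were 3.31%, 3.67% and 6.47% in WT libraries, 6.96%, 2.99% and 2.37% in Tet2KO, 2.86%, 3.91% and 1.18% in Tet3KO, and 11.5%, 14.3% and 13.4% in DKO. The 3 follicular DKO libraries lay above every other library in the table at that tile. The follicular DKO minus WT difference was 8.59 points (SE 1.45, adjusted p = 0.0146), by limma with Benjamini-Hochberg adjustment over all 200813 tiles. The adjusted p was 0.134 with strata of sex and age as a block, 0.222 with the compared groups alone, 0.669 on the logit scale, 0.06 without library 13 and 0.0602 without library 14. Between stages the DKO difference was 10.2 points (SE 1.45, adjusted p = 0.00383), against 4.48 points (SE 1.45, adjusted p = 0.291) in WT. The next tile, chr4:44727001-44727100, had levels of 8.02%, 5.45% and 6.94% in WT and 12.6%, 9.6% and 16.9% in DKO follicular libraries. In pro-B cells the same tile read 3.45%, 1.97% and 2.34% in WT and 6.38%, 7.03% and 11.3% in DKO. Its difference between DKO and WT was 6.23 points (SE 2.81, adjusted p = 0.801) in follicular and 5.67 points (SE 2.81, adjusted p = 0.597) in pro-B cells, not past the test, and 9.76 and 9.19 points with the block.

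The tested tiles nearest each side of the start edge were chr4:44719301-44719400, inside the gene, and chr4:44724901-44725000, outside it. Follicular levels of the inner tile were 17.1%, 10% and 9.68% in WT libraries, 0%, 18.2% and 22.2% in Tet2KO, 9.09%, 9.09% and 16.7% in Tet3KO, and 4.17% and 34.8% in DKO (no value in library 23). Its follicular DKO minus WT difference was 7.22 points (SE 9.59, adjusted p = 1) and turned negative, to -8.08 points, without library 24; it was 22.5 points without library 22 and 23 points with the block. Follicular levels of the outer tile were 0% in every WT library, 0% in every Tet2KO library, 0%, 8.33% and 0% in Tet3KO, and 2.47%, 0% and 20% in DKO, with a difference of 7.49 points (SE 4.16, adjusted p = 0.853). That difference was 1.23 points without library 24, and with strata of sex and age as a block it was 18.1 points (adjusted p = 0.0375, under the size for a call). Neither tile passed the test as fitted, and the groups overlapped at both.

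Further upstream, a second unmethylated stretch covered chr4:44769001-44769800 with 7 tiles. Group means over 6 of them were at most 0.505%, and the highest library, a pro-B WT library, was at 1.52%. The stretch at the far end, chr4:44994201-44994700, had group means of 0.0150% to 1.08% in every group other than pro-B WT, where library 3 alone was at 28.9% and libraries 1 and 2 at 0. These 2 stretches and the one at 44716201 kept group means under 2% in follicular cells of all 4 genotypes.

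At the gene-body stretches at -153.1 and -47 kb from the start edge, every follicular WT library read higher than every pro-B WT library. Over the 10 intermediate tiles with values in 23 libraries (7 in the body and 3 in the flank), the mean level in WT libraries was 25% ± 5.26 (SD, n = 3) in pro-B and 43.6% ± 4.43 (SD, n = 3) in follicular cells. Pro-B WT libraries read 19%, 28.2% and 28%, and follicular WT libraries 38.7%, 44.8% and 47.3%, so the stages did not overlap. The class uses the mean over both stages, and 5 of the 10 tiles had a mean under 20% in pro-B libraries, so they are in it through their follicular levels, and the stage values over the class are a description. The stage difference was 18.5 points in WT cells, 18.4 in Tet2KO, 19.8 in Tet3KO and 18 in DKO cells, without overlap in any genotype. Over the 5 tiles that were intermediate by their pro-B mean alone, a choice made after the data were seen, it was 13.9 points in WT cells, 11.1 in Tet2KO, 9.10 in Tet3KO and 13.7 in DKO, and DKO stages then overlapped. Over the 7 gene-body tiles alone the difference was 25.7 points in WT cells, 25.5 in Tet2KO, 28.3 in Tet3KO and 20.7 in DKO. With each library's mean over all intermediate autosomal tiles subtracted, the locus difference was 12.1 points in WT cells, 14.8 in Tet2KO, 9.72 in Tet3KO and 12.1 in DKO.

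**Figure D2:**
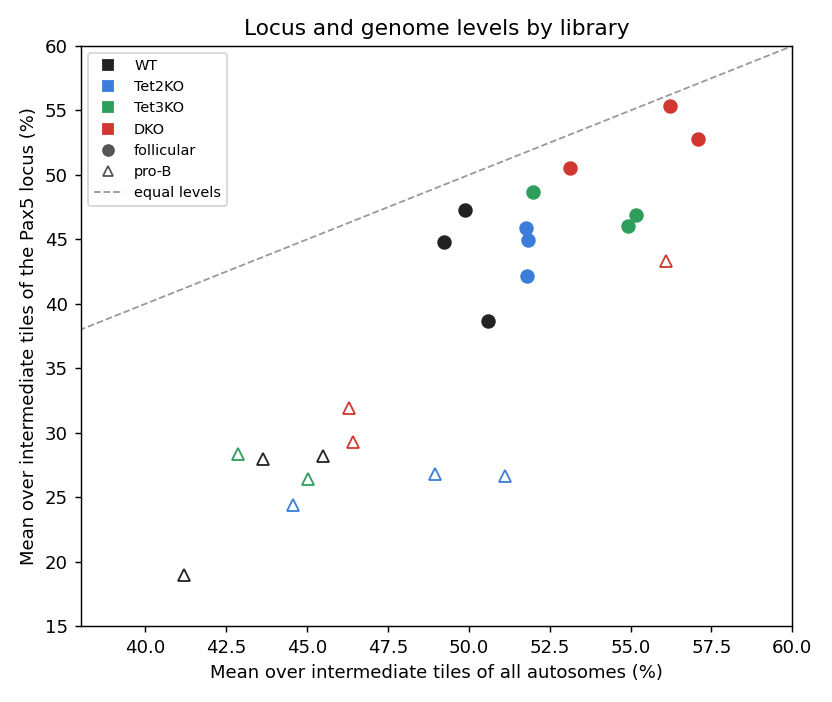
Each library's mean level over the 10 intermediate locus tiles (percent, vertical axis) against its mean over all intermediate autosomal tiles (percent, horizontal axis), with genotypes in colour, pro-B libraries as open triangles, follicular libraries as filled circles, and a dashed line at equal levels. All 23 libraries lie below the line, pro-B libraries furthest: the locus minus genome level is -22.2, -17.3 and -15.6 points in pro-B WT and -11.9, -4.47 and -2.58 points in follicular WT libraries.

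Over the 18 intermediate tiles that were tested, 16 had a higher mean in follicular than in pro-B WT libraries, with a median difference of 22.2 points. Among 23214 tested intermediate tiles of the whole table, 64.6% were higher, with a median of 5.68 points. The locus medians were 21.2 points in Tet2KO, 22.7 in Tet3KO and 20.2 in DKO, against 2.84, 9.08 and 4.90 over all such tiles. With the class set by pro-B libraries alone, 13 of 15 locus tiles were higher in follicular WT libraries, with a median of 19.6 points, against 65% and 5.60 points over 22561 tiles. These counts describe tiles of one neighbourhood that share libraries, and they were not tested as a set.

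No locus tile was called in the WT stage comparison, where limma called 0.133% of all tested tiles as higher in follicular cells and 0.0473% as lower. At an unadjusted p under 0.05, 12 of the 81 locus tiles were higher and 1 was lower, against 5.81% and 2.69% of all tested tiles. The libraries did not overlap at 17 locus tiles in the higher direction, where 9.37% of all tested tiles were so separated, and at 4 in the lower direction, against 6.76% of all. The 4 adjacent tiles of chr4:44570901-44571300, at -153.1 kb from the start edge (inside the gene), were among the 17. Their mean was 33.7% ± 13.3 (SD, n = 3) in pro-B WT and 65.1% ± 6.51 (SD, n = 3) in follicular WT libraries. The corresponding pro-B and follicular means were 38.4% and 62.6% in Tet2KO, 35.2% and 63.5% in Tet3KO, and 44% and 63.7% in DKO. WT, Tet2KO and Tet3KO stages did not overlap there (exact two-sided permutation p = 0.1 each, the smallest that 3 libraries against 3 or 2 can give, so this test cannot pass 0.05). DKO stages overlapped (exact permutation p = 0.2), since library 10 stood at 57.5%, above the lowest follicular DKO library at 56.1%. Follicular means of the 4 genotypes lay between 62.6% and 65.1%.

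The first of these tiles, chr4:44570901-44571000, had the lowest adjusted p of the 4 between WT stages. At 44570901, the pro-B levels were 13%, 0% and 17.1% in WT libraries, 6.78%, 35% and 21.3% in Tet2KO, 6.58% and 0% in Tet3KO, and 21.5%, 24.7% and 21.5% in DKO. Follicular levels at 44570901 were 46.6%, 41.1% and 60% in WT libraries, 34.3%, 46.2% and 46.6% in Tet2KO, 38%, 40.5% and 56.1% in Tet3KO, and 49.5%, 32.4% and 51.7% in DKO. Every follicular WT library was above every pro-B WT library, by 39.2 points (SE 8.6, adjusted p = 0.0732) on average, which misses the threshold. Its pro-B DKO libraries were all above its pro-B WT libraries, with a difference of 12.5 points (SE 8.6, adjusted p = 0.721), or 7.52 points without library 2 and 6.67 points with strata of sex and age as a block. At 44571101, the pro-B levels were 12%, 37% and 49.5% in WT libraries, 43.8%, 38.7% and 55.2% in Tet2KO, 36.5% and 44.2% in Tet3KO, and 61.5%, 46.7% and 42.5% in DKO. Follicular levels at 44571101 were 61.6%, 58.8% and 73.5% in WT libraries, 67.1%, 56.2% and 64.4% in Tet2KO, 60.7%, 64.9% and 66.9% in Tet3KO, and 69.2%, 66.2% and 69.8% in DKO. Here too the WT stages were separated, by 31.8 points (SE 7.96, adjusted p = 0.128), which became 40.2 points (adjusted p = 0.0197) without library 3. At 44571201, the pro-B levels were 0%, 61% and 47.4% in WT libraries, 59.5%, 39.6% and 48.9% in Tet2KO, 43.5% and 40.9% in Tet3KO, and 73.3%, 37.8% and 50.9% in DKO. Follicular levels at 44571201 were 64.4%, 79.3% and 70.3% in WT libraries, 64.6%, 75.6% and 73.8% in Tet2KO, 79.4%, 74.1% and 60.6% in Tet3KO, and 75%, 64.8% and 82.8% in DKO. The WT difference at that tile was 35.2 points (SE 12.1, adjusted p = 0.338), and 17.2 points without library 1, which was at 0.

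**Figure D3:**
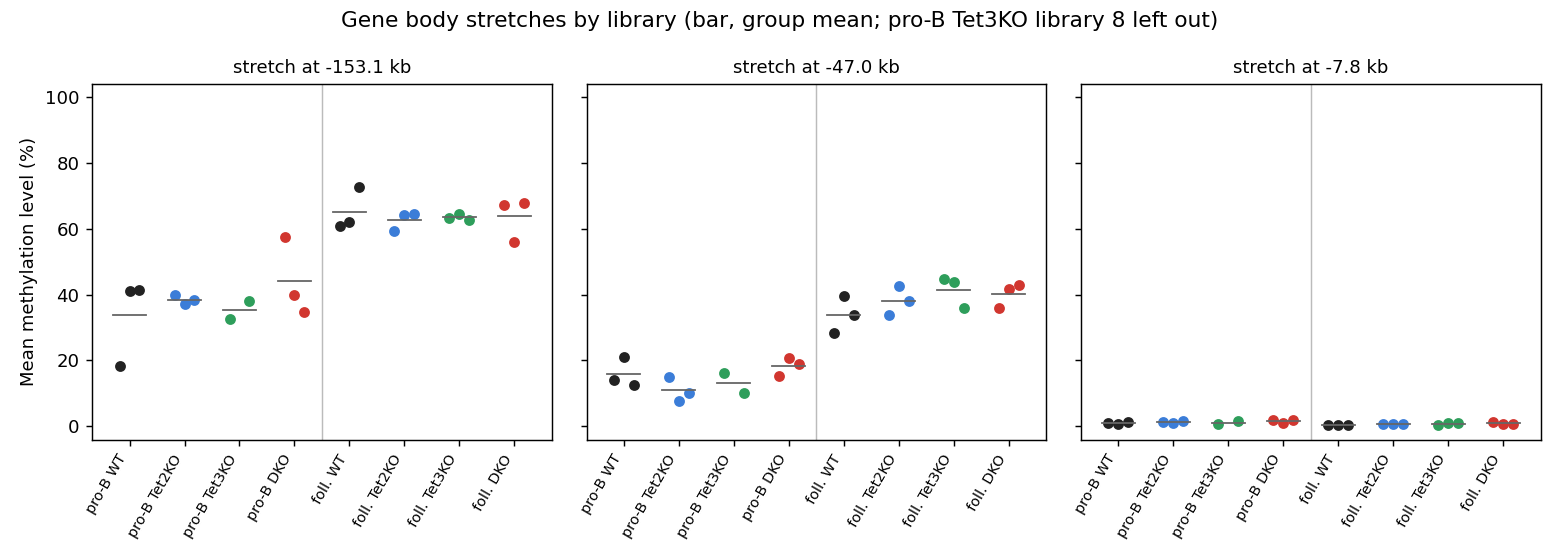
Mean level per library (percent, vertical axis) in 3 gene-body stretches, titled by their distance from the Pax5 start edge in kb, for the 8 groups (horizontal axis), with a point per library and a bar at the group mean. Group means of the stretches at -153.1 and -47 kb are higher in follicular than in pro-B libraries in every genotype, and the DKO stages overlap at -153.1 kb. The stretch at -7.8 kb stays under 2% in all libraries.

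A pair of tiles at -86.2 kb also had separated WT stages, with scattered levels within groups. At 44637801, the pro-B levels were 0%, 23.3% and 0% in WT libraries, 48%, 16.9% and 15.5% in Tet2KO, 68.4% and 33.3% in Tet3KO, and 43.9% and 0% in DKO (no value in library 12). Follicular levels at 44637801 were 37%, 59% and 59% in WT libraries, 43.2%, 20% and 55.9% in Tet2KO, 51.6%, 82.6% and 71.4% in Tet3KO, and 41.2%, 40% and 45% in DKO. The WT stage difference there was 43.9 points (SE 14.4, adjusted p = 0.31). At 44637701, the pro-B levels were 25%, 50% and 2.78% in WT libraries, 37.5% and 48.1% in Tet2KO, 0% and 100% in Tet3KO, and 60% and 13.8% in DKO (no value in libraries 6 and 12). Follicular levels at 44637701 were 58.3%, 53.8% and 82.5% in WT libraries, 79.2%, 81.8% and 100% in Tet2KO, 78.6%, 73.1% and 72.7% in Tet3KO, and 85.7%, 61.5% and 100% in DKO. There it was 39 points (SE 20.5, adjusted p = 0.636). Neither passed the test.

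A second gene-body stretch, chr4:44677001-44677500, at -47 kb, held both locus tiles that were called between stages. Over its 3 tiles with values in 23 libraries, the mean was 15.9% ± 4.65 (SD, n = 3) in pro-B WT and 33.9% ± 5.61 (SD, n = 3) in follicular WT libraries. The pro-B and follicular means were 11% and 38.2% in Tet2KO, 13.1% and 41.5% in Tet3KO, and 18.3% and 40.2% in DKO. The stages did not overlap in any genotype (exact permutation p = 0.1 each; 0.367 after Benjamini-Hochberg adjustment over the 110 comparisons of 11 stretches).

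Within it, chr4:44677001-44677100 was higher in follicular than in pro-B DKO cells. At 44677001, the pro-B levels were 28.6% and 31.1% in WT libraries, 23.4%, 25.9% and 23.2% in Tet2KO, 35.1% and 15.6% in Tet3KO, and 27.1%, 29% and 11.6% in DKO (no value in library 2). Follicular levels at 44677001 were 44.4%, 49% and 46.6% in WT libraries, 60.1%, 60.6% and 57.6% in Tet2KO, 52%, 67.7% and 58.8% in Tet3KO, and 68.2%, 66.3% and 60.4% in DKO. Pro-B libraries of all genotypes stayed at or below 35.1%, and follicular libraries of all genotypes were at or above 44.4%. In DKO cells the tile rose by 42.4 points (SE 6.86, adjusted p = 0.0117) between stages, the only locus tile called in that comparison, in which 0.139% of all tested tiles were called higher and 0.0294% lower. The same difference was 16.8 points (SE 7.67, adjusted p = 0.568) in WT, 35.3 points (SE 6.86, adjusted p = 0.077) in Tet2KO and 34.1 points (SE 7.67, adjusted p = 0.0558) in Tet3KO. The test of the DKO against the WT stage difference gave 25.6 points (SE 10.3, adjusted p = 0.855). No locus tile was called in that test, with 3 higher and 1 lower at an unadjusted p under 0.05 (2.94% and 2.58% of all), and 0.0134% and 0.0154% of all tested tiles were called. The follicular DKO libraries were also above the follicular WT libraries at this tile, by 18.3 points (SE 6.86, adjusted p = 0.574), or 10.5 points with strata of sex and age as a block.

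The last tile of the stretch, chr4:44677401-44677500, was the only locus tile called between Tet3KO stages. At 44677401, the pro-B levels were 20.1%, 22.2% and 13.1% in WT libraries, 25.1%, 10.4% and 12.9% in Tet2KO, 18.3% and 0% in Tet3KO, and 31.5%, 22.2% and 26% in DKO. Follicular levels at 44677401 were 35.5%, 53.6% and 38.9% in WT libraries, 42.9%, 49.2% and 37.1% in Tet2KO, 50.7%, 57.2% and 48.8% in Tet3KO, and 49.4%, 51.8% and 43.3% in DKO. All follicular libraries were above all pro-B libraries. The Tet3KO difference was 43.1 points (SE 8.08, adjusted p = 0.0187), in a comparison with 0.379% of all tested tiles called higher and 0.0378% lower, and its pro-B side rests on libraries 7 and 9, the second of which was at 0. Without library 9 the adjusted p was 0.0922. The difference was 24.2 points (SE 7.23, adjusted p = 0.233) in WT. No locus tile was called between Tet2KO stages, where 0.0364% of all tested tiles were called higher and 0.0199% lower, and 13 locus tiles were higher and 2 lower at an unadjusted p under 0.05 (4.04% and 1.92% of all). Stages did not overlap at 17 locus tiles in the higher direction in Tet2KO, against 6.81% of all tested tiles, and at 5 in the lower, against 4.47%. In Tet3KO these counts were 12, against 12.2% of all, and 7, against 8.46%. In DKO they were 11, against 7.02% of all, and 6, against 5.14%. Both calls were lost when limma was fitted to the compared groups alone, with an adjusted p of 0.415 at 44677001 and 0.442 at 44677401. They were also lost with strata of sex and age as a block, with an adjusted p of 0.056 at 44677001 and 0.119 at 44677401.

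In the flank, the stretch chr4:44976101-44976400 was also higher in follicular cells. Over 2 of its 3 tiles the mean was 3.08% ± 3.05 (SD, n = 3) in pro-B WT and 22% ± 6.09 (SD, n = 3) in follicular WT libraries. In DKO cells it was 11.7% ± 1.86 (SD, n = 3) and 34.6% ± 5.70 (SD, n = 3). DKO and WT libraries did not overlap at either stage, with a difference of 12.5 points in follicular and 8.60 points in pro-B cells (exact permutation p = 0.1 each, 0.367 adjusted). Follicular Tet2KO libraries averaged 23.8% ± 1.97 (SD, n = 3) and follicular Tet3KO libraries 31.8% ± 4.82 (SD, n = 3). The stretch chr4:44986501-44986800 had follicular means of 22.3% in WT libraries, 24.1% in Tet2KO, 30% in Tet3KO and 28.3% in DKO, and its follicular WT and DKO libraries overlapped.

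Among the 81 tested tiles, the one that differed most between follicular DKO and WT cells was chr4:44952701-44952800, 228.7 kb upstream of the Pax5 start edge. At 44952701, the pro-B levels were 3.88%, 45.7% and 59.5% in WT libraries, 26%, 60.2% and 33.3% in Tet2KO, 50.8% and 38.2% in Tet3KO, and 91.8%, 69.7% and 62.5% in DKO. Follicular levels at 44952701 were 0.588%, 2.99% and 0.741% in WT libraries, 2.94%, 1.75% and 2.52% in Tet2KO, 3.7%, 10% and 8.57% in Tet3KO, and 69%, 57.7% and 64.4% in DKO. The 9 follicular libraries that were not DKO were all at or below 10%, and the 3 follicular DKO libraries were all at or above 57.7%. Means were 1.44% ± 1.34 (SD, n = 3) in follicular WT and 63.7% ± 5.7 (SD, n = 3) in follicular DKO libraries. The tile rose in DKO by 62.3 points (SE 12.1, adjusted p = 0.0402) by limma, on 23 libraries since library 8 had no value there. It was the only locus tile called in this comparison, in which 0.128% of all tested tiles were called higher and 0.000996% lower. At an unadjusted p under 0.05, 5 locus tiles were higher and 1 was lower, against 4.54% and 1.28% of all tested tiles. The call was lost with the compared groups alone (adjusted p = 0.139) and without any one of libraries 13, 14, 15, 22 and 24 (adjusted p from 0.065 to 0.116). It was also lost with strata of sex and age as a block (45.3 points, adjusted p = 0.52). Follicular WT and DKO share only the stratum of females of 6 weeks, so the block compares these genotypes directly only there. In that stratum, WT library 15 read 0.741% and DKO library 24 read 64.4%. The block value of 45.3 points is therefore not a measured difference between the genotypes.

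**Figure D4:**
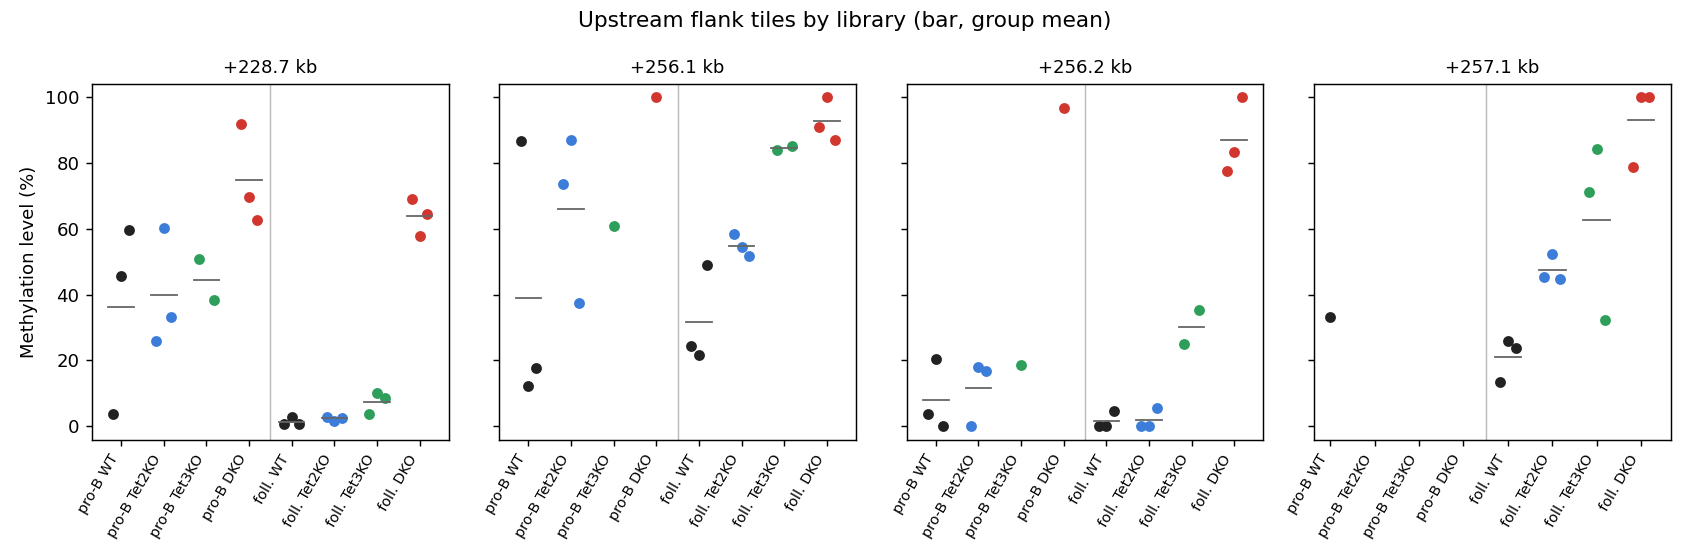
Level per library (percent, vertical axis) of 4 upstream flank tiles, titled by their distance from the Pax5 start edge in kb, for the 8 groups (horizontal axis), with a point per library and a bar at the mean of groups with 2 or more values. The tiles were drawn because of their follicular DKO minus WT differences. The 3 follicular DKO libraries stand above the 3 follicular WT libraries at every tile, at 57.7% or more at 228.7 kb where WT libraries are at 2.99% or less.

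In the pro-B stage the same tile was partly methylated and varied between libraries. Pro-B WT libraries ran from 3.88% to 59.5%, and pro-B DKO libraries from 62.5% to 91.8%, without overlap. The pro-B DKO minus WT difference was 38.3 points (SE 12.1, adjusted p = 0.283) and missed the threshold. It was 22.1 points without library 1 and 21.4 points with strata of sex and age as a block. The follicular minus pro-B difference was -34.9 points (SE 12.1, adjusted p = 0.341) in WT, -37.4 points (SE 12.1, adjusted p = 0.459) in Tet2KO and -37.1 points (SE 13.5, adjusted p = 0.267) in Tet3KO. In each of these 3 genotypes every follicular library was below every pro-B library, and none of the 3 differences passed the test. Without library 1, the WT difference was -51.2 points (adjusted p = 0.0353 by limma), past the threshold. In DKO the difference was -10.9 points (SE 12.1, adjusted p = 0.876), and the stages overlapped. The DKO stage difference minus the WT one was 24 points (SE 17.1, adjusted p = 0.884), so the difference between genotypes was not detected by the test of it.

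The 2 tested tiles next to it on the upstream side, chr4:44952801-44952900 and chr4:44952901-44953000, were near 0 in nearly all libraries. Follicular levels of the first were 0% in every WT library, 0% in every Tet2KO library, 0% in every Tet3KO library, and 0%, 11.1% and 0% in DKO, and of the second 0% in every WT library, 0% in every Tet2KO library, 0% in every Tet3KO library, and 14.8%, 0% and 9.52% in DKO. In pro-B cells the highest level of either was 27.2%, in library 10, a DKO library.

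Follicular libraries covered more of the locus, so a fit to the 12 follicular libraries alone, added after the data had been seen, could test 187 locus tiles of 450725 in all. It called 3 locus tiles higher in DKO than in WT and none lower, where 0.231% of all tiles were called higher and 0.00732% lower. All 3 lay in the flank. At 44952701 the difference had a smaller SE in this fit, 62.3 points (SE 2.64, adjusted p = 5.24e-05), and the call held without any one library. The other 2 adjoin each other, chr4:44980101-44980200 and chr4:44980201-44980300, 256.1 and 256.2 kb upstream of the start edge. At 44980101, the pro-B levels were 86.7%, 12.1% and 17.6% in WT libraries, 73.5%, 86.8% and 37.5% in Tet2KO, 60.9% in Tet3KO, and 100% in DKO (no value in libraries 9, 11 and 12). Follicular levels at 44980101 were 24.5%, 21.7% and 48.9% in WT libraries, 58.3%, 54.5% and 51.6% in Tet2KO, 84% and 85% in Tet3KO, and 90.9%, 100% and 87% in DKO (no value in library 21). The tile rose by 60.9 points (SE 8.05, adjusted p = 0.028) in follicular DKO cells, and the call was lost without any one of libraries 13, 14, 22 and 23. At 44980201, the pro-B levels were 3.7%, 20.4% and 0% in WT libraries, 0%, 18.1% and 16.7% in Tet2KO, 18.6% in Tet3KO, and 96.7% in DKO (no value in libraries 9, 11 and 12). Follicular levels at 44980201 were 0%, 0% and 4.55% in WT libraries, 0%, 0% and 5.66% in Tet2KO, 25% and 35.4% in Tet3KO, and 77.4%, 83.3% and 100% in DKO (no value in library 21). That tile rose by 85.4 points (SE 5.68, adjusted p = 0.0012), and every follicular DKO library was at or above 77.4% where no WT library passed 4.55%. Among pro-B libraries only library 10 of the DKO group had a value at these tiles, 100% and 96.7%. Pro-B WT levels at 44980101 spread from 12.1% to 86.7%.

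A further flank tile, chr4:44981101-44981200, named after its values were seen, missed the threshold. Follicular levels there were 13.3%, 25.9% and 23.6% in WT libraries, 45.5%, 52.4% and 44.8% in Tet2KO, 71.1%, 84.2% and 32.4% in Tet3KO, and 78.6%, 100% and 100% in DKO. The DKO minus WT difference was 71.9 points (SE 12.5, adjusted p = 0.0667), and all 9 knockout libraries were above all 3 WT libraries.

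Single knockouts gave no called tile in the follicular locus. In the fit over 24 libraries, limma called 0 locus tiles for Tet2KO against WT, where 0.00299% of all tested tiles were called higher. At an unadjusted p under 0.05 the locus had 0 tiles for Tet2KO, against 1.69% higher and 1.18% lower of all. For Tet3KO limma called 0, where 0.00996% of all were called higher. At an unadjusted p under 0.05 the locus again had 0 tiles, against 2.74% higher and 1.22% lower of all. Tet3KO libraries did not overlap WT libraries at 5 locus tiles in the higher direction, against 6% of all tested tiles, and Tet2KO libraries at 2, against 4.63%. In the fit to follicular libraries, which called 0.000444% of tiles higher for Tet2KO and 0.00621% higher and 0.000666% lower for Tet3KO, the locus again had no call. At an unadjusted p under 0.05 that fit had 7 locus tiles higher and 2 lower for Tet2KO, against 2.77% and 1.79% of all tiles. For Tet3KO it had 12 higher and 5 lower, against 3.77% and 1.74%.

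At the 4 flank tiles from 228.7 to 257.1 kb, mean follicular Tet2KO and Tet3KO levels both lay between those of WT and DKO. These tiles were given for their DKO levels, and that choice favours such an order. For 44980101 the difference from WT was 23.1 points (SE 8.05, adjusted p = 1) in Tet2KO and 52.8 points (SE 9.0, adjusted p = 0.203) in Tet3KO. For 44980201 it was 0.372 points (SE 5.68, adjusted p = 1) in Tet2KO and 28.7 points (SE 6.35, adjusted p = 0.393) in Tet3KO, with no Tet3KO value from library 21 at either tile. For 44981101 it was 26.6 points (SE 12.5, adjusted p = 1) and 41.6 points (SE 12.5, adjusted p = 0.654). For 44952701 it was 0.966 points (SE 2.64, adjusted p = 1) and 5.99 points (SE 2.64, adjusted p = 0.906), and no single-knockout library passed 10%. None of these 8 differences passed the test, and the single knockouts share the WT libraries with DKO. The difference between single and double knockouts was not tested.

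Over the 10 intermediate tiles, follicular DKO libraries averaged 52.9% ± 2.44 (SD, n = 3), Tet3KO libraries 47.2% ± 1.33 (SD, n = 3), Tet2KO libraries 44.3% ± 1.94 (SD, n = 3) and WT libraries 43.6% ± 4.43 (SD, n = 3). DKO libraries read 52.8%, 50.5% and 55.4%, above the highest WT library at 47.3%. The difference from WT was 9.30 points (SE 2.92, exact permutation p = 0.1) for DKO, 3.63 points (exact permutation p = 0.3) for Tet3KO and 0.752 points (exact permutation p = 0.8) for Tet2KO. Over the 7 gene-body tiles alone the DKO difference was 1.85 points (exact permutation p = 0.6), so most of the difference came from the 3 flank tiles. Among these, 44952701 differed by 62.3 points and is the tile called above, so the class mean is not separate from that call. With the class set by follicular libraries alone, which leaves 44952701 out, the difference over 10 tiles was 4.43 points (exact permutation p = 0.3). With the genome mean of intermediate tiles subtracted, it was 3.72 points (exact permutation p = 0.3). Of the 18 tested intermediate tiles 13 were higher in DKO, with a median of 5.92 points, against 68% and 4.24 points over all such tiles.

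Follicular DKO and WT libraries did not overlap at 10 locus tiles in the higher direction, where 7.1% of all tested tiles were so separated, and at 1 in the lower direction, against 2.54%. Apart from 44952701, the largest of these differences were at tiles already given in the gene body and near the start, and at chr4:44568401-44568500. At 44568401, the pro-B levels were 100%, 71.1% and 0% in WT libraries, 90.6%, 96.9% and 75% in Tet2KO, 60% and 100% in Tet3KO, and 100%, 94.3% and 100% in DKO. Follicular levels at 44568401 were 91%, 87% and 85.9% in WT libraries, 96.6%, 87.6% and 89.5% in Tet2KO, 94.7%, 92.3% and 96.2% in Tet3KO, and 100%, 95.1% and 97.5% in DKO. That tile was at 85.9% or more in all follicular libraries, and its follicular DKO minus WT difference was 9.55 points (SE 16.4, adjusted p = 1). With strata of sex and age as a block the fit gave 40 points, a size that these follicular levels do not allow. WT and DKO libraries share only the stratum of females of 6 weeks, so the block value is not a measured difference between them. The single tile in the lower direction was chr4:44569901-44570000. At 44569901, the pro-B levels were 100% in every WT library, 94.7%, 97.3% and 90.9% in Tet2KO, 100% in every Tet3KO library, and 100% in every DKO library (no value in library 1). Follicular levels at 44569901 were 98.9%, 98.9% and 97.8% in WT libraries, 98.2%, 98.1% and 97.8% in Tet2KO, 100%, 97.7% and 95% in Tet3KO, and 94.1%, 95.4% and 96.1% in DKO. Its difference was -3.32 points (SE 1.4, adjusted p = 0.718), and the follicular minus pro-B difference in WT was -1.48 points (SE 1.56, adjusted p = 0.93).

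In pro-B cells no locus tile was called in any knockout. For DKO against WT, limma called 0.187% of all tested tiles higher and 0.0438% lower, and 9 locus tiles were higher and none lower at an unadjusted p under 0.05 (6% and 2.83% of all). For Tet2KO it called 0.0558% higher and 0.0129% lower, with 3 locus tiles higher and 3 lower at an unadjusted p under 0.05 (4.28% and 2.48% of all). For Tet3KO it called 0.164% higher and 0.257% lower, with 6 locus tiles higher and 1 lower at that level (5.93% and 4.37% of all). Pro-B DKO libraries were above WT libraries without overlap at 6 locus tiles, against 4.74% of all tested tiles, and below them at none, against 2.43%. Tet2KO libraries were separated from WT at 3 tiles in the higher direction (4.39% of all) and 4 in the lower (2.97%), and Tet3KO libraries at 9 (5.77%) and 2 (4.19%). The mean over the 10 intermediate tiles was 34.9% ± 7.46 (SD, n = 3) in pro-B DKO, 25% ± 5.26 (SD, n = 3) in WT, 26% ± 1.37 (SD, n = 3) in Tet2KO and 27.4% ± 1.39 (SD, n = 2) in Tet3KO libraries. Library 10 stood at 43.4% and the other DKO libraries at 31.9% and 29.3%. The DKO difference was 9.82 points (exact permutation p = 0.1), and 3.65 points with the genome mean subtracted.

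Beside 44952701 and 44570901, the pro-B DKO tiles with the largest separated differences were chr4:44799201-44799300 and chr4:44715301-44715400. At 44799201, the pro-B levels were 67.9% and 52.9% in WT libraries, 69.1%, 64.2% and 69.7% in Tet2KO, 87.9% and 57.7% in Tet3KO, and 75.8%, 90.9% and 72.2% in DKO (no value in library 1). Follicular levels at 44799201 were 91.5%, 80.6% and 75% in WT libraries, 76.9%, 75.5% and 85.5% in Tet2KO, 83.3%, 81% and 88.4% in Tet3KO, and 83.9%, 70.3% and 81.7% in DKO. The pro-B DKO minus WT difference was 19.2 points (SE 7.93, adjusted p = 0.477), or 11.8 points without library 3, and follicular libraries were high in all genotypes. At 44715301, the pro-B levels were 6.45% and 2.78% in WT libraries, 1.59%, 13.7% and 7.62% in Tet2KO, 0% in every Tet3KO library, and 7.32%, 14.3% and 25% in DKO (no value in library 2). Follicular levels at 44715301 were 0%, 1.45% and 10.1% in WT libraries, 0%, 1.52% and 0% in Tet2KO, 0% in every Tet3KO library, and 6.67%, 5.56% and 0% in DKO. The tile lies near the Pax5 start, and its difference was 10.9 points (SE 4.26, adjusted p = 0.442), or 6.19 points without library 12. Neither passed the test.

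In the lower direction between WT stages, beside 44952701 and 44569901, the separated tiles were chr4:44659101-44659200 and chr4:44628401-44628500. At chr4:44659101-44659200 the levels were 100%, 96% and 100% in pro-B WT and 91.5%, 92.7% and 94.3% in follicular WT libraries, a difference of -5.85 points (SE 8.9, adjusted p = 1). Across all libraries with a value that tile stood between 50% and 100%. At chr4:44628401-44628500 they were 100% in every pro-B WT library and 96.6%, 93.2% and 94.6% in follicular WT libraries, a difference of -5.19 points (SE 3.5, adjusted p = 0.743). Its libraries of all groups ran from 84.1% to 100%, and all 3 follicular DKO libraries were at 100%. Both tiles were above 90% in every WT library.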

How the data were processed

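The 24 RRBS libraries were grouped by stage and genotype from their titles, and 16 RNA sequencing samples of the series were not analysed here. The values deposited by the authors are methylation fractions between 0 and 1 for each 100 bp tile and library, per the file headers, without read counts, so no counting interval could be given. Trim Galore and methylKit, and the builds mm9 and hg19, are named in the submitters' processing notes. The aligner and the coverage minimum are not given in the sources used here. How depth affected the levels was not examined.

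Fractions were multiplied by 100. Limma 3.58.1 (R 4.3.3, version 1.17.8 of data.table) was fitted per autosomal tile with the 8 groups as a factor and a trended prior spread, and was tested on simulated data. A call needed a Benjamini-Hochberg adjusted p under 0.05 over all tested tiles and a difference of 20 points, two-sided. Named tiles were all called ones, up to 5 per direction with separated libraries and the largest differences in 3 comparisons, and those nearest the start edge. Levels are given in every library for most of them, and for the compared groups otherwise. Means of stretches and of intermediate tiles were compared by exact permutation. The locus, the tile rules and the lists were chosen with earlier results of these data known. Libraries of different groups share no replicate number, so sex and age strata served as the block. At either stage, WT and DKO libraries share only the stratum of females of 6 weeks. Block values for DKO against WT are therefore not measured differences between these genotypes. In running order, pro-B and follicular libraries of a genotype match in sex and age (1 with 13, on to 12 with 24). Whether matching libraries came from the same mice is not stated, and the main stage tests treated them as unpaired. Figures were drawn with matplotlib 3.10.9.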

Additional observations from a re-analysis of the deposited data

How the results depend on the processing

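Depth is unknown, only 81 of 368 locus tiles could be tested over both stages, and 3 libraries a group cannot pass an exact test. The call counts were small and moved with the design. With the compared groups alone, the follicular DKO, Tet3KO stage and DKO stage counts each went from 1 to 0. They also went to 0 with sex and age strata as a replicate block. For follicular DKO against WT, that block compares the genotypes directly only in females of 6 weeks. With no size asked, follicular DKO gave 2, the DKO stage comparison 2 and pro-B Tet3KO 1 in place of 0. On the logit scale the Tet2KO stage count went from 0 to 1, and the fit to follicular libraries gave 3 for DKO. Leaving out each library in turn gave 0 to 1 calls for follicular DKO, 2 to 3 in the follicular fit, 0 to 1 for pro-B Tet2KO, 0 to 2 for pro-B Tet3KO, 0 to 1 for the WT stages, 0 to 3 for the Tet3KO stages and 1 to 2 for the DKO stages.

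Differences of the mean over intermediate tiles changed sign only in single knockouts. Centred on all intermediate tiles they were -1.15 points for follicular Tet2KO, -0.496 for follicular Tet3KO and -3.86 for pro-B Tet2KO. Over the gene body alone pro-B Tet3KO was at -0.321 points. With the class set by pro-B libraries alone, an alternative chosen after seeing the data, follicular Tet2KO was at -0.479 points and follicular DKO at 13.5 points; set by follicular libraries alone, follicular DKO was at 4.43 points. With each library left out in turn, follicular Tet2KO ran from -1.70 to 2.61 points, pro-B Tet2KO from -2.13 to 2.48 and pro-B Tet3KO from -0.683 to 3.92. The 44719301 tile ran from -8.08 to 22.5 points for follicular DKO. The follicular DKO mean stayed between 6.85 and 11.2 points, the pro-B DKO mean between 5.58 and 12.6, and the 4 stage differences between 15.2 and 22.3. The cause of these shifts was not tested. The fit asking for a value in all 24 libraries held no locus tile and gave no value.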

Other observations

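Gene-body tiles that only the follicular libraries could test held further differences that missed the adjusted threshold. They were picked after their values were seen. At chr4:44627801-44627900, follicular levels were 34.1%, 48.8% and 54.2% in WT libraries, 31.4%, 38.9% and 65.2% in Tet2KO, 77.8%, 80.6% and 78.1% in Tet3KO, and 97.5%, 89.5% and 93.2% in DKO. The DKO minus WT difference was 47.7 points (SE 8.95, adjusted p = 0.0921) by limma over follicular libraries, beside 33.1 points (SE 8.95, adjusted p = 0.551) for Tet3KO. At chr4:44615601-44615700, follicular levels were 39.5%, 45.6% and 36.2% in WT libraries, 56.2%, 42.6% and 73.9% in Tet2KO, 66.2%, 58.4% and 58.3% in Tet3KO, and 75%, 91.8% and 84.8% in DKO, with a DKO difference of 43.5 points (SE 8.47, adjusted p = 0.107) by limma. At chr4:44710601-44710700, which lies nearer the Pax5 start, follicular levels were 55.6%, 59.1% and 64.3% in WT libraries, 75%, 78.8% and 88.2% in Tet2KO, 75% and 86.7% in Tet3KO, and 91.7%, 85.7% and 100% in DKO (no value in library 21), with a DKO difference of 32.8 points (SE 5.5, adjusted p = 0.075) by limma. All 3 follicular DKO libraries were above all 3 WT libraries at each of these tiles, an order that the choice of tiles favours. The share of all tiles so separated was not counted for this fit. Separation in the lower direction also occurred, as at chr4:44606701-44606800, with a DKO difference of -11.8 points (SE 4.46, adjusted p = 0.633) by limma.

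Other gene-body tiles, also picked after their values were seen, had too few pro-B values to be tested between stages. That choice favours separated stages, and the share of such tiles so separated was not counted. At chr4:44578001-44578100, the pro-B levels on file were 0% and 31.4% in WT libraries, 48.2% and 33.3% in Tet2KO, and 0% in DKO (no value in libraries 1, 4, 7, 9, 11 and 12). Follicular levels there were 93.4%, 93.5% and 94.6% in WT libraries, 90.3%, 97.9% and 68.4% in Tet2KO, 97.1%, 95.2% and 100% in Tet3KO, and 95.5%, 96.4% and 100% in DKO, all above the highest pro-B level. At chr4:44637601-44637700, each of the 6 pro-B libraries with a value read 0%. Follicular levels there were 72.7%, 81.8% and 92.9% in WT libraries, 78.6%, 60% and 50% in Tet2KO, 47.1% in Tet3KO, and 100% in DKO (no value in libraries 19, 21, 22 and 24).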
